A study of Mus musculus with 24 samples.

Results

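Glutamate, the main excitatory transmitter of the cortex, is cleared from the synapse by transporters and recycled through glutamine, and the 8 genes described here encode the central proteins of that route. They were chosen by symbol: Slc1a2, Slc1a3, Slc1a1, Slc17a7, Slc17a6, Glul, Slc38a1 and Slc38a3. All 8 were listed in each of the 4 deposited tables, which together hold 14769 genes. Cortex RNA was sequenced in males 3 to 4 months old whose middle cerebral artery was occluded by a monofilament for 1 h and then reperfused for 1 day (tMCAo, a model of ischemic stroke). All 12 animals had this operation, and all carry the strain label C57BL/6N-Cdr1asem1Nikr, an edit of Cdr1as, the locus of the circular RNA ciRS-7. Wild-type animals (WT) are animals 1 to 6 of one genotype, ciRS-7 knockouts (KO) animals 1 to 6 of the other, and each gave 1 library marked CL and 1 marked PI, which makes 4 groups of 6 libraries. The labels do not spell out CL and PI, and no unoperated animal was analysed here. The labels name no Cre driver.

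Astrocytes take up most of the released glutamate through GLT1 (gene Slc1a2) and GLAST (Slc1a3), while neurons take up a smaller part through EAAC1 (Slc1a1). In astrocytes glutamine synthetase (Glul) turns glutamate into glutamine, which leaves through the transporter SNAT3 (Slc38a3) and enters neurons through carriers such as SNAT1 (Slc38a1). Neurons convert it back to glutamate, and VGLUT1 (Slc17a7) or VGLUT2 (Slc17a6) load it into synaptic vesicles. VGLUT1 is the form of most cortical neurons and VGLUT2 that of the thalamus and many subcortical nuclei. Failure of uptake during ischemia lets glutamate accumulate outside cells, which is why the route is studied in stroke.

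Because ciRS-7 binds the microRNA miR-7, the seed of miR-7 was looked for in the members. The mature forms are shown with the seed, bases 2 to 8, in capitals, since it decides which messenger RNAs can pair (RefSeq, GRCm38.p6).
mmu-miR-7a-5p: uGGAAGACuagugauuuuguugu
mmu-miR-7b-5p: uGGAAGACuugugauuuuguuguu
Both forms share the seed GGAAGAC, so their match in a messenger RNA is GTCTTCC. In the longest annotated 3′ UTR of each member (GENCODE M21, GRCm38), 1 of 8 members held this match, and of 12641 genes with a 3′ UTR 14.7% held it. The one member was Slc1a2, and its site follows with the seed match in capitals.
Slc1a2 site: agcacacatgtgctGTCTTCCtt
The match lies on the plus strand at chr2:102781931-102781937, 397 bases into a 3′ UTR of 9250 bases. Of the 136 UTRs within 20% of that length, 54.4% held the match, so a match in a UTR so long was common. A match is a string of letters and not a shown site of binding.

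Library depth was 5.27 to 10.5 M reads (M, mega), as judged from the step between low values. It differed between tables for the same library, with CL KO 5 at 10.3 M beside PI KO and 10.5 M beside CL WT. Depths are therefore scaled sizes and not counts of reads held. On this scale the members' values stood for about 102 reads (Slc17a6 in PI WT) to 66600 reads (Slc1a2). Levels are log2 CPM, the base-2 logarithm of a gene's counts per mega-read of its library. Per gene, each group's outer values had been replaced by its quartiles before deposit, so the 2 lowest are tied and the 2 highest are tied. Of the 6 values 4 can be recovered, and a group is described by its second lowest, median and second highest library. Tests used the mean of the 4 recovered values (a trimmed mean, given ± its SE, n = 6), moderated by limma's empirical Bayes step, and a gene was called at a Benjamini-Hochberg adjusted p under 0.05. CL KO 6 stood at an end of its group in 91.1% of genes and PI WT 4 in 83.7%, against 66.7% expected of any library and 50.6% to 77.4% in the others. Differences of medians without these 2 libraries are given where they matter. Cdr1as, the targeted gene, had a median of 11.84 log2 CPM in CL WT and 11.39 in PI WT, and its second highest library stood at -2.75 in CL KO and -2.57 in PI KO. It was called lower in KO both in CL (adjusted p = 5.58e-06) and in PI (adjusted p = 0.00237). The cortical marker Tbr1 had a mean of 7.15 log2 CPM over CL WT and PI WT, and the choroid plexus marker Ttr was not listed.

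Per kilobase of exon, which allows genes to be compared, the astrocyte genes Slc1a2 and Glul were the most abundant members. In CL WT the level was 510 CPM per kb for Slc1a2, 306 for Glul, 79.3 for Slc17a7 and 53.3 for Slc1a3. It was 10.0 CPM per kb for Slc38a1, 7.28 for Slc1a1, 6.90 for Slc17a6 and 4.06 for Slc38a3. Slc1a1 and Slc17a6 did not differ beyond the spread of libraries, at 2.86 and 2.79 on the log2 scale per kb with SDs of 0.03 and 0.09. All other neighbours in this order did. With the longest transcript as the length, the order was the same and the values were higher, from 578 for Slc1a2 to 6.79 for Slc38a3. Slc1a1 and Slc17a6 then lay apart, at 3.98 and 3.17 on the log2 scale, so their closeness depends on the length used.

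Between PI and CL cortex, the question was which steps of the route differed between the 2 samples of an animal. Glul fell in PI in both genotypes, by 28.0% in WT and by 22.6% in KO. Slc1a2 fell by 14.9% in WT, and Slc1a1 fell by 16.9% in KO. The vesicular loaders and the glutamine transporters were not called in either genotype by the trimmed-mean test. In WT, 2 of 8 members were called, both lower, where 10.6% of 14489 genes were called (5.20% higher and 5.40% lower). In KO, 2 of 8 were called, both lower, where 10.0% of 14338 genes were called (5.11% higher and 4.94% lower). At an unadjusted p under 0.05 there were 4 of 8 members in WT, against 23.9% of genes, and 3 of 8 in KO, against 24.9%. With differences centred on abundant genes the share of calls that were higher rose from 49.1% to 64.7% in WT and from 50.8% to 66.6% in KO. The median difference of the 8 members was -0.14 in WT and -0.16 in KO, against 0.01 and 0.00 over all genes. In bulk tissue, fewer cells of a type and less RNA per cell cannot be told apart.

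**Figure D1:**
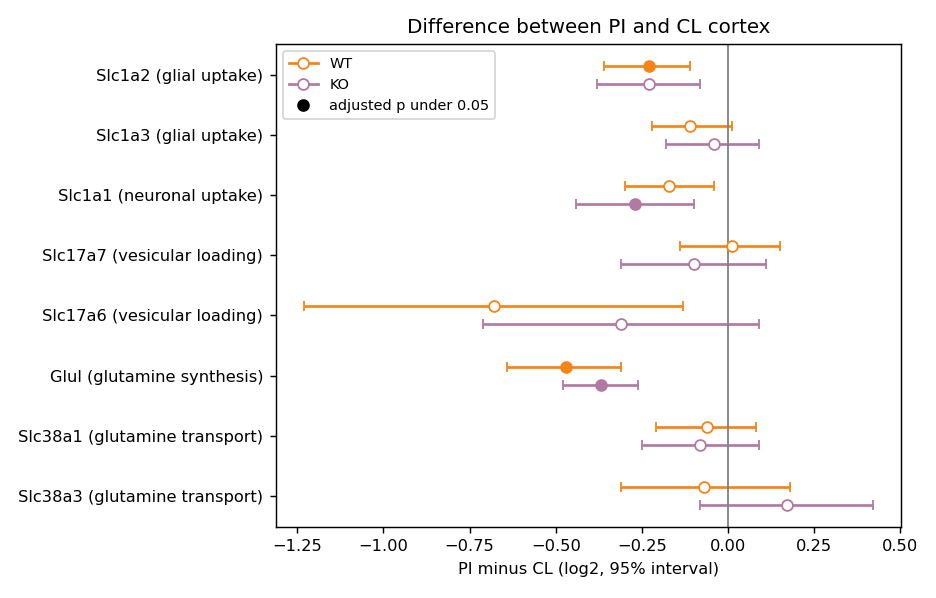
Difference between PI and CL cortex (log2, x axis) for the 8 genes (y axis) in WT and KO, with 95% intervals from the moderated trimmed-mean test; filled points passed an adjusted p of 0.05. Glul is filled in both genotypes, at -0.47 and -0.37, and Slc17a6 has the widest intervals.

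Glul (chr1:153899944-153909723, plus strand, GRCm38) was called lower in PI in both genotypes. In CL WT its second lowest library stood at 9.84, the median at 10.03 and the second highest at 10.05 log2 CPM. In PI WT these were 9.40, 9.53 and 9.59, so every recoverable PI value lay under every recoverable CL value. The trimmed means were 9.99 ± 0.07 in CL WT and 9.52 ± 0.06 in PI WT. The log2 difference was -0.47 (SE 0.08, 95% interval -0.64 to -0.31, adjusted p = 0.00163). In KO the libraries ran from 9.92 over 9.93 to 9.96 in CL and from 9.50 over 9.57 to 9.64 in PI, again without overlap. The trimmed means were 9.94 ± 0.01 in CL KO and 9.57 ± 0.04 in PI KO. The difference in KO was -0.37 (SE 0.05, 95% interval -0.48 to -0.26, adjusted p = 0.00091). As deposited, Glul was lower in PI in 6 of 6 WT animals, by -0.59 to -0.37, and in 6 of 6 KO animals, by -0.42 to -0.31. Deposited values lie within the recoverable ones, so this count follows from the lack of overlap and adds nothing to it. Glul was called under all 6 alternatives in WT (adjusted p from 3.4e-07 to 0.0228) and in KO (adjusted p from 3.14e-08 to 0.0198).

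**Figure D2:**
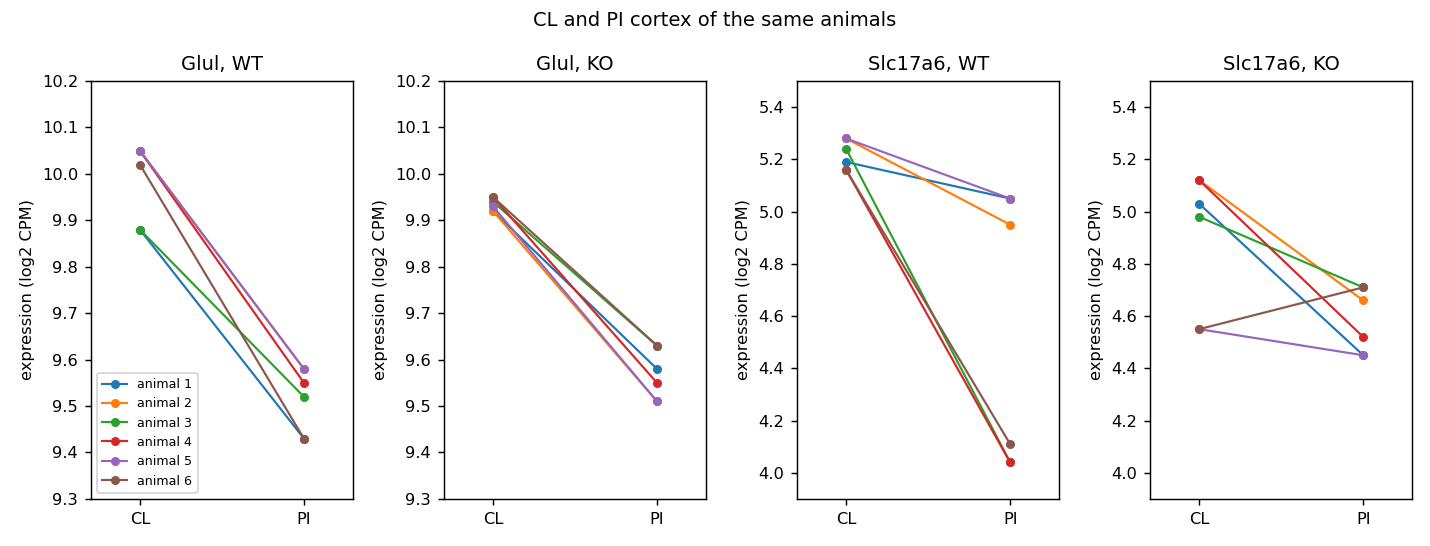
Deposited log2 CPM (y axis) of Glul and Slc17a6 in the CL and PI cortex of each animal, 1 line per animal, in WT and KO. Each Glul line falls from CL to PI, whereas 3 of the 6 WT animals have a PI value of Slc17a6 near 4.04 to 4.11 and the other 3 stay at 4.95 to 5.05.

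The promoter of Glul is shown because Glul was the one member called in both genotypes. The window runs from 250 bases before to 50 after the RefSeq start at chr1:153899679-153899978 on the plus strand (GRCm38.p6), with the match to a GC box in capitals.
Glul promoter: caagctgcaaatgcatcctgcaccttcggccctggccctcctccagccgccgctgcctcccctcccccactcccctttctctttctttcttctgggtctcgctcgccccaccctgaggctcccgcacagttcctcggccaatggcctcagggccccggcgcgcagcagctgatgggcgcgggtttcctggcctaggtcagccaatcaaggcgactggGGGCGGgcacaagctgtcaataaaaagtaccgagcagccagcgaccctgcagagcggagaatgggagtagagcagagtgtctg
It held 1 GC box (GGGCGG, either strand), which 35.7% of 32851 promoters held, and 2 CCAAT boxes (CCAAT, either strand), which 37.4% held. A TATA box (TATAAA), a cAMP response element (TGACGTCA), an E-box (CACGTG) and an NF-kappaB site were searched on both strands with 0 matches in this window. No motif of this list overlapped the GC box shown, and the window is 64.3% G or C against a median of 52.7%.

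Of the glial uptake genes, Slc1a2 (chr2:102658659-102790784, plus strand) is the most abundant glutamate transporter of the forebrain. In CL WT its libraries stood at 12.64, 12.72 and 12.74 log2 CPM (second lowest, median, second highest). In PI WT they stood at 12.43, 12.47 and 12.53, below all recoverable CL values. The difference in WT was -0.23 (SE 0.06, 95% interval -0.36 to -0.11, adjusted p = 0.0211). In KO the libraries stood at 12.65, 12.70 and 12.78 in CL and at 12.34, 12.51 and 12.56 in PI, also apart. The difference in KO was -0.23 (SE 0.07, 95% interval -0.38 to -0.08) and was not called (adjusted p = 0.0572, range over alternatives 0.000145 to 0.153). Slc1a2 was lower in PI in 6 of 6 KO animals as deposited, by -0.31 to -0.12, which follows from the lack of overlap. Limma with the animal as a block called Slc1a2 in KO (adjusted p = 0.000222), a fit that called 47.1% of all genes there. The call in WT was lost with differences centred on abundant genes (adjusted p = 0.0565) and with a prior variance without trend (adjusted p = 0.0633), the range over alternatives being 6.49e-06 to 0.0633.

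Slc1a3 (chr15:8634124-8710764, minus strand) encodes GLAST, the other astrocyte carrier. Its libraries stood at 8.80, 8.82 and 8.88 log2 CPM in CL WT and at 8.64, 8.74 and 8.79 in PI WT, just short of overlapping. In KO they stood at 8.83, 8.85 and 8.88 in CL and at 8.74, 8.78 and 8.95 in PI, which overlapped. The difference was -0.11 (SE 0.05, 95% interval -0.22 to 0.01, adjusted p = 0.272, range over alternatives 0.00539 to 0.545) in WT. In KO it was -0.04 (SE 0.06, 95% interval -0.18 to 0.09, adjusted p = 0.744).

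The 10 astrocyte markers moved in both directions. In WT 2 were called higher and 2 lower in PI, with a median of -0.05, and in KO 2 higher and 1 lower, with a median of -0.07. The shares over all genes were 5.20% higher and 5.40% lower in WT and 5.11% and 4.94% in KO. Gfap, a filament of reactive astrocytes, was higher by 1.88 (SE 0.11, adjusted p = 1.87e-06) in WT and by 2.19 (SE 0.16, adjusted p = 8.47e-06) in KO. The water channel Aqp4 was higher by 0.27 (SE 0.06, adjusted p = 0.0125) in WT, whereas the gap junction gene Gja1 was at -0.35 (SE 0.08, adjusted p = 0.0126). All marker sums given here add deposited, drawn-in values, so their ranges can be too narrow. The summed level of the 10 genes was 1010 to 1050 CPM in CL WT and 1110 to 1200 in PI WT. In KO animals it was 987 to 1020 CPM in CL and 1110 to 1270 CPM in PI. With all 10 genes the sum of deposited values was higher in PI without overlap, and this turned without Gfap. The other 9 genes summed to 938 to 988 CPM in CL WT and 859 to 942 in PI WT, and in KO animals to 933 to 971 CPM in CL and 874 to 937 CPM in PI, lower in PI with some overlap. No defining marker of the list was at 0, and its part in the values of Glul and Slc1a2 was not tested.

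Slc1a1 (chr19:28835049-28913960, plus strand) encodes the carrier of neurons. Its libraries stood at 5.85, 5.88 and 6.04 log2 CPM in CL KO and at 5.55, 5.66 and 5.71 in PI KO, without overlap. The difference was -0.27 (SE 0.08, 95% interval -0.44 to -0.10, adjusted p = 0.047). In WT they stood at 5.90, 5.91 and 5.95 in CL and at 5.68, 5.74 and 5.81 in PI, also apart. The difference in WT was -0.17 (SE 0.06, 95% interval -0.30 to -0.04) and was not called (adjusted p = 0.0933, range over alternatives 0.000183 to 0.216). Slc1a1 was lower in PI in 6 of 6 WT animals as deposited, by -0.25 to -0.10, which follows from the lack of overlap. Limma with the animal as a block called Slc1a1 in WT (adjusted p = 0.000875), a fit that called 45.6% of all genes there. The call in KO was lost with differences centred on abundant genes (adjusted p = 0.085) and with a prior variance without trend (adjusted p = 0.106), the range over alternatives being 5.5e-05 to 0.106. An exon of Slc1a1 overlaps the gene 4430402I18Rik on the opposite strand by 1524 bases, and whether reads were counted by strand is not given in the sources used here.

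Of the 10 neuron markers, 10 had a difference below 0 in WT and 9 in KO. In PI WT 3 of 10 were called lower and 0 higher (5 at an unadjusted p under 0.05), with a median of -0.22, and in PI KO 3 lower and 0 higher (6 at an unadjusted p under 0.05), with a median of -0.18. The share of all genes called lower was 5.40% in WT and 4.94% in KO, and 23.9% and 24.9% had an unadjusted p under 0.05. As deposited, the summed level of the neuron markers ran from 8660 to 9170 CPM in CL WT and 7400 to 8120 in PI WT. In KO animals it was 8450 to 8890 CPM in CL and 7230 to 7910 CPM in PI. Of the 6 excitatory markers, 2 were higher and 4 lower in PI WT (1 called lower, 0 higher), with a median of -0.12. In PI KO 1 was higher and 5 lower (2 called lower, 0 higher), with a median of -0.24. Excitatory markers summed, as deposited, to 1350 to 1450 CPM in CL WT and 1080 to 1160 in PI WT. In KO animals they summed to 1410 to 1530 CPM in CL and 1050 to 1110 CPM in PI. The part of these markers in the values of the neuronal genes was not tested.

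Slc17a7 (chr7:45163949-45176142, plus strand), the vesicular transporter of most cortical excitatory neurons, overlapped between PI and CL. Its libraries stood at 8.67, 8.74 and 8.80 log2 CPM in CL WT and at 8.65, 8.74 and 8.85 in PI WT. The difference in WT was 0.01 (SE 0.07, 95% interval -0.14 to 0.15, adjusted p = 0.968), and with differences centred on the median gene it was 0.00. In KO the libraries stood at 8.66, 8.76 and 8.80 in CL and at 8.51, 8.58 and 8.90 in PI. The difference in KO was -0.10 (SE 0.10, 95% interval -0.31 to 0.11, adjusted p = 0.596).

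Slc17a6 (chr7:51622006-51671119, plus strand), the other vesicular transporter, had the largest spread of the members. The CL WT libraries lay close together, at 5.15, 5.21 and 5.29 log2 CPM, while PI WT stood at 4.01, 4.53 and 5.08. As deposited, PI WT animals 1, 2 and 5 stood at 5.05, 4.95 and 5.05, and animals 3, 4 and 6 at 4.04, 4.04 and 4.11. No PI WT library lay between 4.11 and 4.95. All 6 animals were lower in PI than in CL, by -1.21 to -0.14, which follows as the recoverable values of these groups did not overlap. The difference was -0.68 (SE 0.25, 95% interval -1.23 to -0.13) and was not called (adjusted p = 0.114, range over alternatives 0.00401 to 0.244). Here limma with the animal as a block called Slc17a6 (adjusted p = 0.00401), a fit that called 45.6% of all genes in WT. As a difference of medians it was -0.68 with all libraries and -0.26 without PI WT 4.

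In KO the spread of Slc17a6 lay on the CL side. The CL KO libraries stood at 4.40, 5.01 and 5.15 log2 CPM, with animals 5 and 6 tied at 4.55 as deposited, and PI KO at 4.43, 4.59 and 4.73. The difference in KO was -0.31 (SE 0.18, 95% interval -0.71 to 0.09, adjusted p = 0.337, range over alternatives 0.0229 to 0.448). The 7 thalamus markers, which share the best known site of Slc17a6, summed to 64.5, 61.4 and 63.1 CPM in PI WT animals 1, 2 and 5 and to 62.0, 63.2 and 57.5 in animals 3, 4 and 6. The depth of the same libraries was 9.89, 9.24 and 7.07 M reads, against 6.34, 6.18 and 6.91, so the 3 libraries with the higher Slc17a6 were also the deeper ones. In CL KO the order was the reverse. There animals 5 and 6, low in Slc17a6, had the deepest libraries, at 10.3 and 7.50 M reads against 6.54 to 7.44. The part of depth in these values was not tested. The excitatory markers summed to 1100, 1160 and 1080 CPM in PI WT animals 1, 2 and 5 and to 1140, 1160 and 1090 in animals 3, 4 and 6, which overlapped. The 7 oligodendrocyte markers summed to 2110, 2110 and 1580 CPM in animals 1, 2 and 5 and to 1500, 1560 and 1550 in animals 3, 4 and 6. Animals 1 and 2 stood apart, whereas animal 5, high in Slc17a6, lay close to animals 3, 4 and 6. Of the thalamus list only Synpo2 lay apart by the split, at 2.56, 2.15 and 2.56 log2 CPM as deposited against 2.09, 1.96 and 1.96. The other markers of that list overlapped. Among them Lef1 stood at 0.86, 0.40 and 1.18 against 2.04, 2.04 and 0.40. The part of these cells in the split was not tested.

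**Figure D3:**
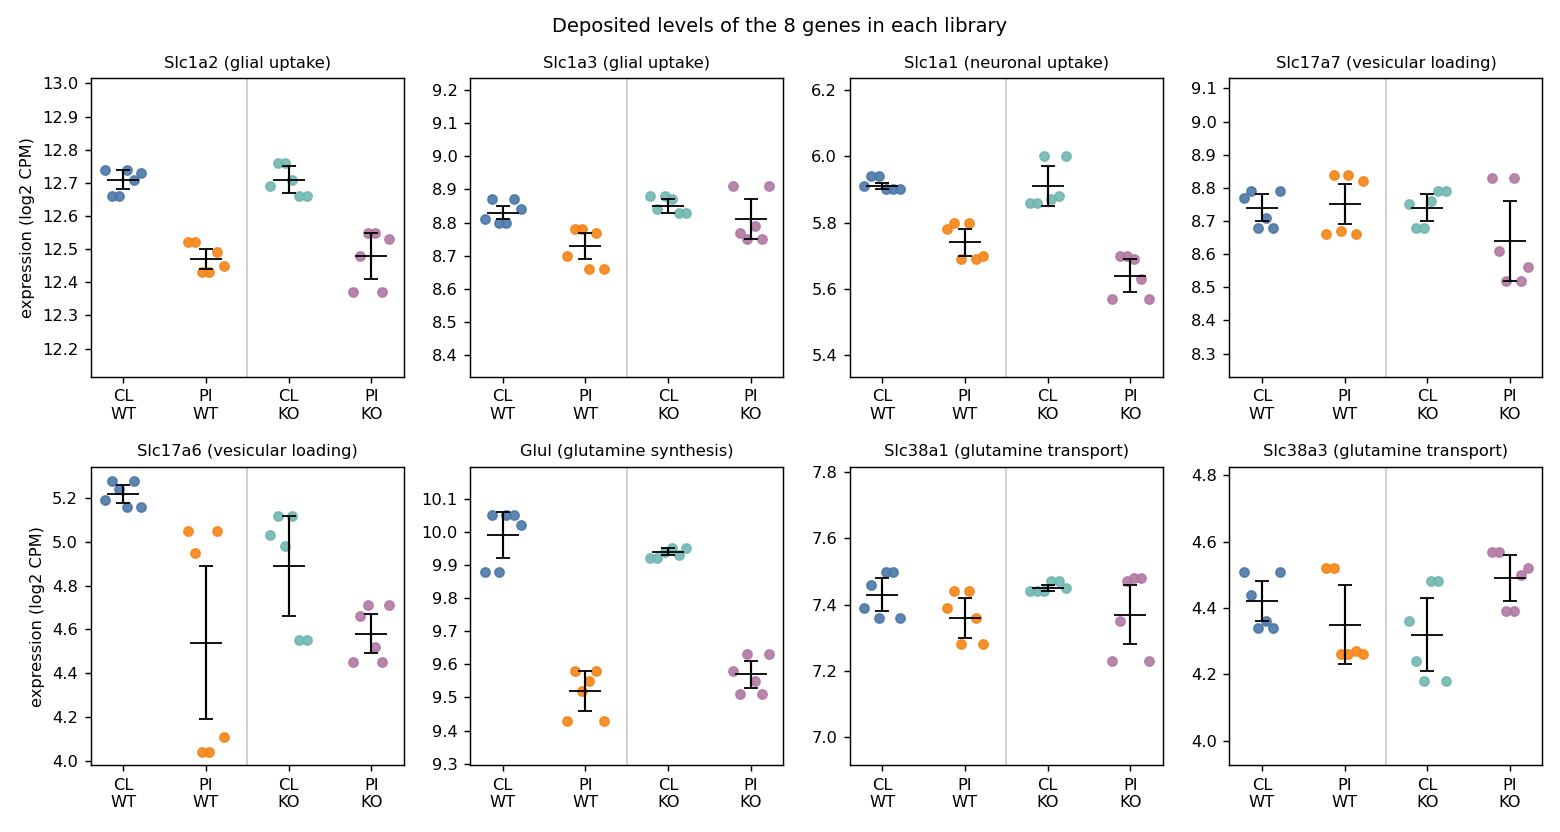
Deposited log2 CPM (y axis) of each of the 8 genes in every library of the tables of PI and CL, by group (x axis), with the trimmed mean and its SE in black; the WT and KO tables were scaled separately. Glul and Slc1a2 lie apart between CL and PI in both genotypes, and PI WT splits into 2 clusters for Slc17a6.

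The recoverable values of the glutamine transporters overlapped between CL and PI in both genotypes. Slc38a1 (chr15:96571418-96642913, minus strand) stood at 7.35, 7.43 and 7.51 log2 CPM in CL WT and at 7.25, 7.37 and 7.46 in PI WT. Its difference was -0.06 (SE 0.07, 95% interval -0.21 to 0.08, adjusted p = 0.637) in WT. In CL KO it stood at 7.44, 7.45 and 7.48, the tightest group of this gene, and in PI KO at 7.19, 7.41 and 7.48. The difference in KO was -0.08 (SE 0.08, 95% interval -0.25 to 0.09, adjusted p = 0.597).

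Slc38a3 (chr9:107650634-107669530, minus strand), the astrocyte exporter of glutamine and the least abundant member, had opposite signs in the 2 genotypes. It stood at 4.33, 4.40 and 4.54 log2 CPM in CL WT and at 4.25, 4.27 and 4.61 in PI WT, where animals 1 and 2, the deepest libraries of the group, were the high ones at 4.52 as deposited. In KO it stood at 4.15, 4.30 and 4.51 in CL and at 4.36, 4.51 and 4.59 in PI. The difference was -0.07 (SE 0.11, 95% interval -0.31 to 0.18, adjusted p = 0.788) in WT. In KO it was 0.17 (SE 0.12, 95% interval -0.08 to 0.42, adjusted p = 0.393). Limma with the animal as a block called Slc38a3 higher in KO (adjusted p = 0.0399), a fit that called 47.1% of all genes there.

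Counting groups that did not overlap, 5 of 8 members had all recoverable PI values under all CL values in WT, where 13.1% of genes did. In KO it was 3 of 8 members, where 13.4% of genes did. No member had the reverse in either genotype, where 13.2% and 13.4% of genes did (26.3% and 26.8% in either direction). The 5 in WT were Slc1a2, Slc1a3, Slc1a1, Slc17a6 and Glul, and the 3 in KO were Slc1a2, Slc1a1 and Glul. With the animal as a replicate block, limma on the deposited values called 5 of 8 members in WT, where it called 45.6% of all genes, and 5 of 8 in KO, where it called 47.1%. The 5 in WT were those just named for WT, all lower in PI. In KO they were Slc1a2, Slc1a1, Slc17a6 and Glul, lower, and Slc38a3, higher by 0.17 (adjusted p = 0.0399). That fit takes the drawn-in spread at face value, and it also called 5 and 5 members without the block.

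The interaction, the PI minus CL difference of KO animals less that of WT animals, was fitted over the 14211 genes that both tables of PI and CL share. By the trimmed-mean test 0 of 8 members were called, and 0 of 8 had an unadjusted p under 0.05, where 0% of genes were called and 4.55% had an unadjusted p under 0.05. With deposited values in limma, 0 of 8 were called as well. For Slc1a2, called in WT and not in KO, the interaction was 0.00 (SE 0.09, 95% interval -0.19 to 0.20). For Slc1a1, called in KO and not in WT, it was -0.09 (SE 0.10, 95% interval -0.29 to 0.11). For Glul it was 0.11 (SE 0.09, 95% interval -0.09 to 0.30), for Slc38a3 0.24 (SE 0.17, 95% interval -0.12 to 0.59) and for Slc17a6 0.37 (SE 0.35, 95% interval -0.36 to 1.10). The interval of Slc17a6 is the widest, and holds differences of either sign.

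Between KO and WT within one kind of cortex, the question was whether loss of ciRS-7 altered the route. By the trimmed-mean test 0 of 8 members were called in CL and 0 of 8 in PI, and 0 of 8 had an unadjusted p under 0.05 in either. Over all genes 0.0279% were called in CL (0.0140% higher and 0.0140% lower) and 0.0208% in PI (0.00692% higher and 0.0138% lower), and 5.73% and 5.75% had an unadjusted p under 0.05. With deposited values limma called 1 member in CL, Slc17a6 (adjusted p = 0.0375, and adjusted p = 0.0397 with the shared number as a block), and 0 in PI. It called 16.1% of all genes in CL and 16.5% in PI. No member's recoverable values lay apart between genotypes, where 8.67% of genes did in CL (4.35% higher and 4.32% lower) and 8.97% in PI (4.39% higher and 4.57% lower). The median difference of the 8 members was 0.01 in CL and 0.04 in PI.

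**Figure D4:**
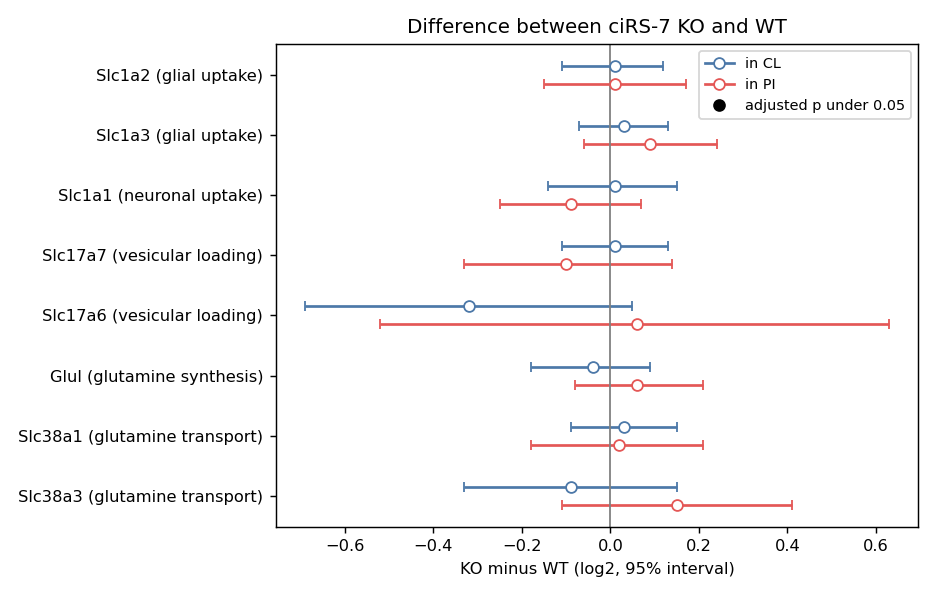
Difference between KO and WT (log2, x axis) for the 8 genes (y axis) within CL and within PI, with 95% intervals from the moderated trimmed-mean test; no point is filled because none passed an adjusted p of 0.05. Each interval includes 0, and those of Slc17a6 are the widest.

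The intervals bound what the genotype could have changed. Slc1a2, the one member with a seed match to miR-7, differed by 0.01 in CL (SE 0.05, 95% interval -0.11 to 0.12, adjusted p = 0.997). In PI it differed by 0.01 (SE 0.07, 95% interval -0.15 to 0.17, adjusted p = 0.992). As a ratio of KO to WT these intervals run from 0.930 to 1.09 in CL and from 0.902 to 1.12 in PI. Glul differed by -0.04 in CL (95% interval -0.18 to 0.09) and by 0.06 in PI (95% interval -0.08 to 0.21), with libraries from 9.90 to 9.93 in CL KO and 9.80 to 10.02 in CL WT.

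Slc17a6 had the largest difference between genotypes, -0.32 in CL (SE 0.17, 95% interval -0.69 to 0.05, adjusted p = 0.878, range over alternatives 0.0375 to 0.912). Its libraries stood at 4.37, 4.98 and 5.13 log2 CPM in CL KO and at 5.12, 5.18 and 5.26 in CL WT, overlapping at the top of the KO group. The difference of medians was -0.20, and -0.18 without CL KO 6. In PI it differed by 0.06 (SE 0.27, 95% interval -0.52 to 0.63), and the difference of medians was 0.07 with all libraries and -0.35 without PI WT 4. The other members differed by -0.09 to 0.03 in CL and by -0.10 to 0.15 in PI.

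Of 26 further genes of glutamate and glutamine handling, listed with earlier results known, 23 were in the tables and Slc1a5, Slc1a7 and Slc38a5 were not. In WT 3 rose in PI, 2 fell and 18 were not called, and in KO 3 rose, 1 fell and 19 were not called. Over all genes 5.20% were called higher and 5.40% lower in WT, and 5.11% and 4.94% in KO. The median difference was 0.00 in WT and -0.06 in KO. The 3 that rose were the same in both genotypes. Slc7a11, the exchanger that brings in cystine and releases glutamate, went from 5.60, 5.70 and 5.75 log2 CPM in CL WT to 6.49, 6.75 and 6.97 in PI WT, without overlap. It rose by 1.05 (SE 0.12, adjusted p = 0.000217) in WT and by 0.78 (SE 0.13, adjusted p = 0.00235) in KO. Slc3a2, its heavy chain partner, rose by 0.48 (SE 0.07, adjusted p = 0.000785) in WT and by 0.55 (SE 0.09, adjusted p = 0.00275) in KO. Slc1a4, a neutral amino acid exchanger of the same family as the glutamate carriers, rose by 0.74 (SE 0.07, adjusted p = 5.79e-05) in WT and by 0.77 (SE 0.09, adjusted p = 0.000329) in KO.

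Of the genes that fell, Pcx encodes pyruvate carboxylase, which lets astrocytes make glutamate anew. Its log2 level fell by 0.31 (SE 0.08, adjusted p = 0.030) in WT and by 0.34 (SE 0.09, adjusted p = 0.0375) in KO. The aminotransferase gene Gpt2 fell by 0.38 (SE 0.07, adjusted p = 0.00606) in WT and was at -0.19 (adjusted p = 0.279) in KO. Between genotypes 0 of the 23 were called in CL (3 at an unadjusted p under 0.05) and 0 in PI (0 at an unadjusted p under 0.05) by the trimmed-mean test.

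**Figure D5:**
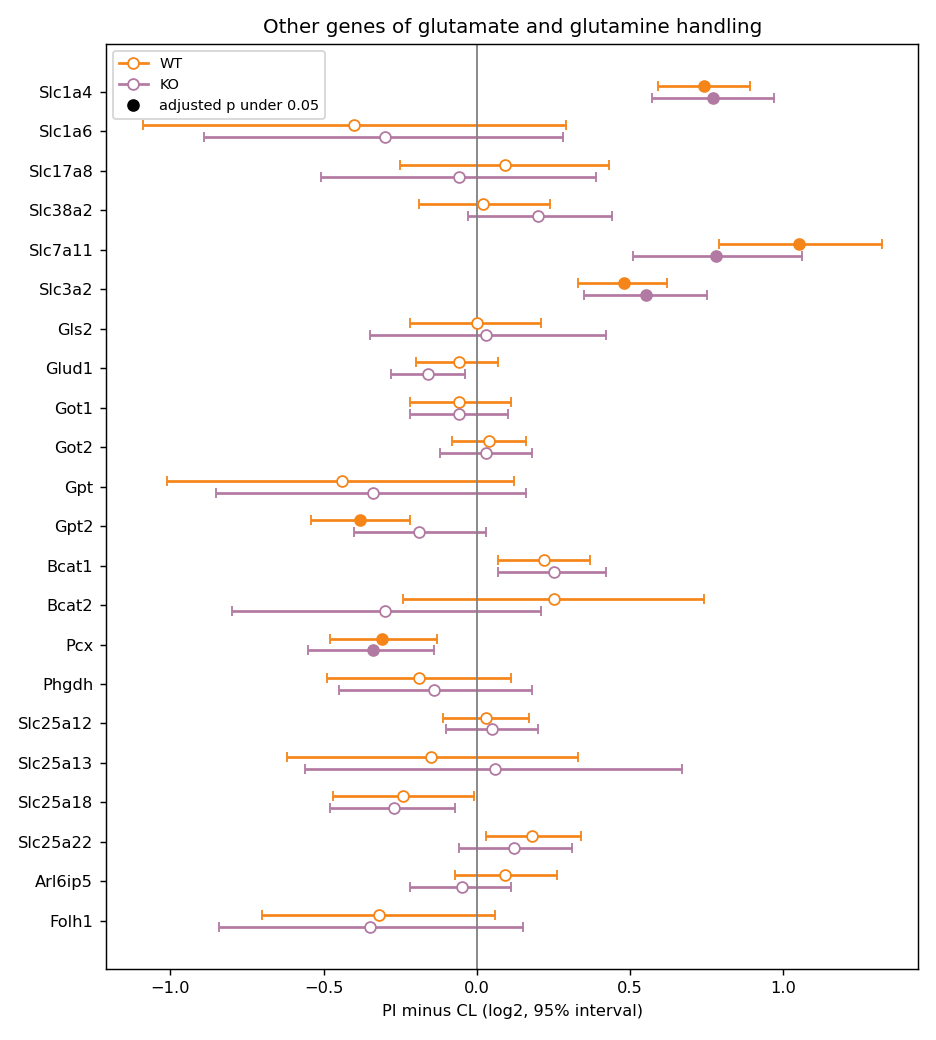
Difference between PI and CL cortex (log2, x axis) for further genes of the pathway (y axis) in WT and KO, with 95% intervals from the moderated trimmed-mean test; filled points passed an adjusted p of 0.05. Slc1a4, Slc7a11 and Slc3a2 are filled to the right of 0 and Pcx to the left in both genotypes.

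The genes whose pattern over the 24 libraries was closest to that of Glul were sought among 435 genes within 1.5 log2 CPM of its level, by the root mean square difference of values centred within each table. They were Ppp3r1, a calcineurin subunit (0.069 log2), Rtn1, a reticulon (0.069), and Fam107a (0.071). These genes were chosen for likeness over the same values, so differences near those of Glul were largely fixed by the choice. Ppp3r1 differed between PI and CL by -0.36 in both WT and KO, and Rtn1 by -0.39 and -0.45. Fam107a differed by -0.46 in WT and by -0.29 in KO, where it was not called (adjusted p = 0.0658).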

How the data were processed

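The authors deposited log2 CPM values (counts per gene and mega-read, on a log2 scale) in 4 tables of 2 groups each, per the file headers. The genome build is mm10, per the submitters' processing notes. The aligner, counting method, use of strand and filters are not given in the sources used here. Each table was scaled on its own, so tests stayed within a table. The number of value columns not used was 0. Per gene, each group's outer values had been replaced by its quartiles on the log2 scale, a step no label records. It was undone for the 4 inner values: among low values, 77.4% to 89.0% per group were then whole reads within 0.03 read.

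Trimmed means with Winsorized errors (6 degrees of freedom for 2 groups, 12 for 4) went to limma 3.58.1 in R 4.3.3 with a trended prior, fitted over all genes of a table, two-sided. The test was tried on simulated drawn-in data. CL and PI of one number come from the same animal, per the labels. Deviations of the 2 libraries of an animal correlated at -0.04 to 0.25 in WT and -0.04 to 0.23 in KO. The drawing-in hides which library of a tied pair holds a value, so the animal block was fitted on deposited values only. The main test has no term for the animal, so it treats CL and PI as unpaired. Its p-values rest on the spread between the libraries of a group.

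The members and lists were chosen with earlier results of these data known. The rule for named genes took all 8 members, further genes of the pathway that were called (up to 6 per direction), and the 3 genes most like a member called in both comparisons of PI with CL. Other names were chosen after their values were seen, and some listed genes are counted but not reported singly here. Marker lists for inhibitory neurons, oligodendrocytes, microglia, endothelium and striatum had medians of 0.04, -0.36, 0.13, 0.27 and 0.08 between PI and CL in WT and 0.01, -0.13, 0.31, 0.11 and 0.26 in KO. That for the thalamus had -0.10 and -0.14. Of 7 neutrophil and monocyte markers 0 were in these 2 tables, and of 5 choroid plexus markers 1 was. Sequences of 6 of the 8 promoters were found (not Slc38a1 and Slc38a3).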

Additional observations from a re-analysis of the deposited data

How the results depend on the processing

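Among the members' tests under the 6 alternatives, 14 gained a call, 4 lost one and 2 changed sign, both near 0: Slc17a7 between PI and CL in WT (0.00 when centred on the median gene) and the interaction of Slc1a2 (-0.01 when centred on abundant genes). All 14 gains came from limma on the deposited values, with or without the block. That test called 6459 genes between PI and CL in WT (6614 with the animal as a replicate block), 6666 in KO (6759 paired), 2388 between genotypes in PI (1800 with the block on the shared number), 2311 in CL (1868) and 1940 for the interaction (2216), where the main test called 1537, 1440, 3, 4 and 0. It called 5 members between PI and CL in each genotype, with or without the replicate block, and 1 member between genotypes in CL, likewise with or without it, against 2, 2 and 0. The cause of its higher counts was not tested: it differs from the main test in the values, the means and the degrees of freedom at once. A prior variance without trend called 1015 genes in WT and 739 in KO, and 1 member in each. Centring on abundant genes also left 1 member in each, Glul in all 4 cases. It subtracted the median difference of abundant genes, -0.045 in WT and -0.04 in KO, so every difference moved up. It was Slc1a2 that lost its call in WT and Slc1a1 in KO; the cause was not tested. The 2 libraries that stood apart were left out after the data had been seen, as differences of medians with no test; without PI WT 4, that of Slc17a6 went from -0.68 to -0.26 between PI and CL in WT and from 0.07 to -0.35 between genotypes in PI. Lengths by the longest transcript raised every level per kb. At the lowest value, 102 reads, depth limits Slc17a6 and Slc38a3 more than the other members.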
